A study of Mus musculus with 6 samples.

Results

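The 8 genes described here encode the mouse AP-1 proteins of the Fos family (Fos, Fosb, Fosl1 and Fosl2), those of the Jun family (Jun, Junb and Jund) and Atf3. They were taken by their gene names from the count table, which held all 8 among its 56941 genes. Total RNA of hair follicle stem cells (HFSCs) was sequenced by the authors from dorsal skin of female mice of the strain B6;129S4-Dab2tm1Cpr/J at postnatal day 68, in the second telogen, the resting phase of the hair cycle. That stage is the one the paper gives for both groups at this age, and it was not tested here. Cells were brought into suspension with trypsin and sorted for CD34 and α6-integrin. Both groups carried floxed Dab2 alleles (Dab2 fl/fl) and were given tamoxifen at 75 mg/kg per day for 5 days. The 3 libraries labelled WT came from K14CreER-/- mice, and the 3 labelled Dab2-cKO from K14CreER+/- mice, in which the K14 promoter drives a tamoxifen-activated Cre in keratinocytes and not in the other cells of the skin. The comparison asks which genes differ in HFSCs when Dab2, an endocytic adaptor protein, is targeted.

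AP-1 is a dimer of basic leucine zipper proteins. Fos proteins pair with a Jun protein, Jun proteins also pair with each other, and Atf3 can pair with Jun proteins or with itself. The dimers bind short palindromes known as the TPA response element and the cAMP response element. Fos, Fosb, Jun, Junb and Atf3 are immediate early genes, whose transcripts rise quickly and briefly after growth factors, wounding, stress or the release of cells from a tissue, while Jund and Fosl2 are as a rule more evenly expressed. In the epidermis, AP-1 proteins act in differentiation, barrier formation, inflammation and the response to wounds.

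The total per library was 7040032 to 9518564 counts in those labelled WT and 9374373 to 11696457 under the Dab2-cKO label. Mitochondrial genes took 13.0% to 14.4% of the counts of the first group and 19.1% to 20.3% of the second. The rRNA genes took 15.3% to 17.0% and 22.3% to 24.2%. Mitochondrial rRNA genes are part of both shares, so the shares overlap and do not add up. The targeted gene went against its label. Dab2 had 304, 368 and 362 counts under the WT label and 1504, 1130 and 1259 under the Dab2-cKO label (log2 fold change 2.08, adjusted p = 3.04e-34 by edgeR). A count per gene also takes in transcripts that have lost an exon. Counts per exon were not examined, and the cause of the higher Dab2 counts was not tested. The count table names the second group after the floxed alleles, which both groups carry, and the series title equates that name with Dab2-cKO. Every direction below rests on that equation, and libraries are called by their labels.

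In the libraries labelled Dab2-cKO, 5 of the AP-1 genes rose. Fos rose 7.29-fold, Atf3 6.81-fold, Fosb 6.09-fold, Jun 2.81-fold and Jund 1.70-fold. Junb and Fosl2 did not pass the test, and Fosl1 had too few counts to be tested. Of the 7 members tested, 5 were therefore called higher and 0 lower (edgeR's quasi-likelihood test, adjusted p under 0.05 over 32149 genes), and each of the 5 was more than 1.5-fold higher. Over all genes tested, 28.2% were called, 16.8% as higher and 11.5% as lower, and 11.6% were called higher and more than 1.5-fold so. All 5 also passed a test against a 1.5-fold change, as did 6.91% of all genes. Every library labelled Dab2-cKO lay above every one labelled WT in these 5 members, against 20.6% of all genes, and below in Fosl2, against 17.7%. Of the genes whose mean normalized count reached 100, as it did for all 7 members, 37.6% were called higher and 22.8% lower. The 7 were counted well in both groups, as the lowest count of any of them in any library was 99, for Atf3. The median log2 fold change was 1.49 over the 7 members and -0.02 over all genes tested. The split of the calls over all genes depends on the scaling. It was 5387 higher and 3682 lower with the TMM factors used here, 4281 and 5561 with upper-quartile factors, and 2686 and 11168 with library size alone.

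**Figure D1:**
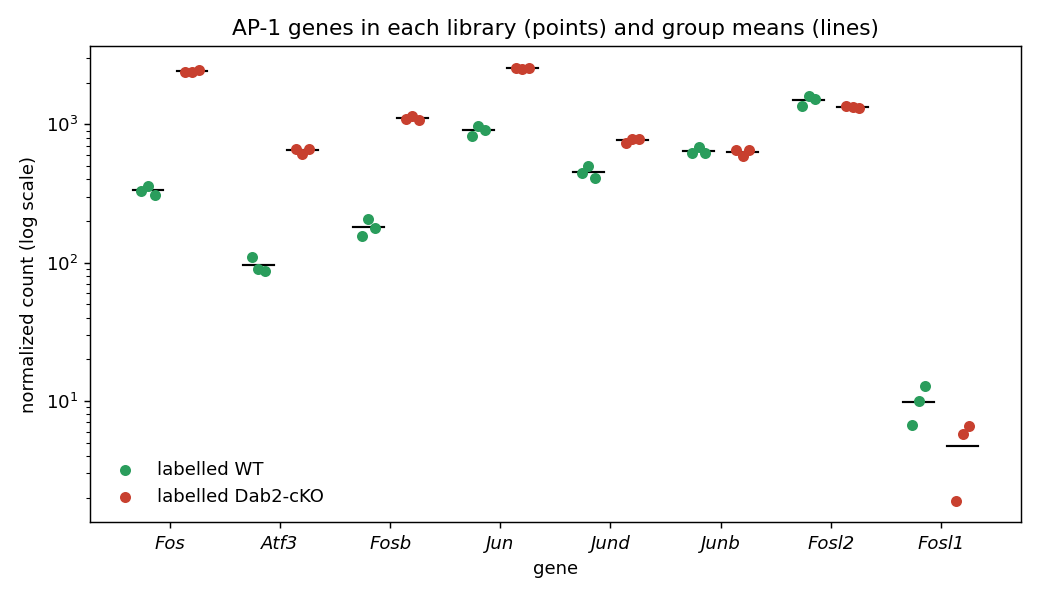
Normalized counts of the 8 AP-1 genes on a log10 axis, with 1 point for each library labelled WT (n = 3) or Dab2-cKO (n = 3) and a bar at the group mean. For Fos, Fosb, Atf3, Jun and Jund every point labelled Dab2-cKO lies above every point labelled WT, for Junb the points overlap, and for Fosl2 and Fosl1 those labelled Dab2-cKO lie below, by little.

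Fos is the founding member of the family and, with Jun, forms the classical AP-1 dimer. It lies on chromosome 12 of GRCm39 from 85520658 to 85524047, and no annotated exon overlaps its own. Its normalized counts were 332, 360.2 and 307 under the WT label (replicates 1 to 3) and 2405, 2398 and 2477 under the Dab2-cKO label. All 3 libraries of the second group thus stood far above all 3 of the first, and within each group the values lay close together. The means were 333 ± 26.8 (SD, n = 3) and 2427 ± 43.6 (SD, n = 3), a log2 fold change of 2.87 (standard error, SE, 0.08, adjusted p = 3.74e-43 by edgeR, 95% interval 2.71 to 3.02). Of the 32149 genes tested, 79 had a larger log2 fold change than Fos.

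Fosb, also an immediate early gene, lies on chromosome 7 from 19036621 to 19043976. A shorter spliced form of it, ΔFosB, lacks the activating end of the protein and cannot be told apart by counts per gene. The normalized counts of Fosb were 157, 208 and 177 under the WT label and 1090.0, 1143 and 1081 under the Dab2-cKO label. The groups did not overlap, and their means were 180.5 ± 25.5 and 1104 ± 33.4 (SD, n = 3 each). The log2 fold change was 2.61 (SE 0.09, adjusted p = 6.55e-37 by edgeR), and 135 genes had a larger one.

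Fosl2 encodes Fra-2, and Fosl1 encodes Fra-1. Both proteins lack the strong activating end of Fos. Fosl2 lies on chromosome 5 from 32292707 to 32315186, and its normalized counts were 1351, 1589.8 and 1531 under the WT label and 1344, 1323 and 1307 under the Dab2-cKO label. The lowest library of the first group and the highest of the second were nearly level, although the groups did not overlap. The means were 1490.5 ± 125 and 1325 ± 18.5 (SD, n = 3 each), with a log2 fold change of -0.17 (SE 0.07, adjusted p = 0.0637 by edgeR, 95% interval -0.31 to -0.03). The interval is for the single gene, and the adjusted p did not reach 0.05. Without replicate 1 labelled WT, the lowest of its group, the log2 fold change was -0.23 (edgeR's adjusted p = 0.00287), so 1 library decides this call. Over the 15 alternatives it was called lower in 7, with adjusted p-values from 1.14e-15 to 1.

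Fosl1, on chromosome 19 from 5497575 to 5505974, had 6, 11 and 15 counts under the WT label and 2, 5 and 6 under the Dab2-cKO label. These few reads gave 4.82 ± 1.51 and 2.34 ± 1.23 normalized counts per kb of exon (SD, n = 3 each). Genes of the chemosensory receptor families, which the skin is not known to use, had a median of 4.90 and a 95th percentile of 11.6 over 1439 genes. Taken over all its exon bases, Fosl1 did not rise above this background in either group. In addition, 69.1% of its exon bases are overlapped on the opposite strand, mainly by Ccdc85b, which had 126 to 142 counts under the WT label and 154 to 211 under the Dab2-cKO label. Since the strand setting of the counting is not given in the sources used here, reads of the 2 genes cannot be told apart. Reads lost to this overlap would make the level of Fosl1 too low, so its place against the background is uncertain. Without the expression filter the log2 fold change of Fosl1 was -1.10 (edgeR's adjusted p = 0.356).

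Jun, the most versatile partner in AP-1 dimers, is a gene of 1 exon on chromosome 4 from 94937271 to 94940459. Its normalized counts were 821, 970.5 and 916 under the WT label and 2538, 2523 and 2567 under the Dab2-cKO label. The second group stood wholly above the first. The means were 902 ± 75.9 and 2543 ± 22.4 (SD, n = 3 each), with a log2 fold change of 1.49 (SE 0.07, adjusted p = 1.27e-28 by edgeR). An antisense gene, Junos, overlaps 16.6% of the exon bases of Jun. Its counts were 131, 151 and 134 under the WT label and 95, 67 and 103 under the Dab2-cKO label, fewer than those of Jun and higher in the group where Jun was lower.

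Jund, as a rule the steadily expressed Jun gene, also consists of 1 exon, on chromosome 8 from 71151599 to 71153265. Its normalized counts were 448, 496 and 408 under the WT label and 735, 777 and 785 under the Dab2-cKO label. Again the groups did not overlap. The means were 451 ± 43.7 and 766 ± 26.6 (SD, n = 3 each), and the log2 fold change of 0.76 (SE 0.08, adjusted p = 3.17e-12 by edgeR) was the lowest of the 5 called. An annotated gene on the other strand, Gm11175, overlaps 52.6% of the exon bases of Jund and had 0 counts in every library. Since the strand setting of the counting is not given, this 0 does not show that Jund lost no reads to the overlap.

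Junb, which can restrain growth and oppose Jun, lies on chromosome 8 from 85701113 to 85705359. Its normalized counts were 621, 689 and 621 under the WT label and 654, 593 and 654 under the Dab2-cKO label. The groups overlapped, with means of 644 ± 39.0 and 634 ± 35.7 (SD, n = 3 each). The log2 fold change was -0.02 (edgeR's adjusted p = 0.889), and its 95% interval, -0.18 to 0.14, ends below the intervals of the 5 called genes. Exons of Prdx2 and another gene on the opposite strand overlap 13.4% of its exon bases.

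Atf3, a stress-induced gene of the ATF/CREB group whose protein pairs with Jun proteins or represses as a homodimer, lies on chromosome 1 from 190902493 to 190950241. Its normalized counts were 110.2, 90.3 and 86.3 under the WT label and 664, 614 and 662 under the Dab2-cKO label. The groups did not overlap and had means of 95.6 ± 12.8 and 647 ± 28.0 (SD, n = 3 each). The log2 fold change was 2.77 (SE 0.11, adjusted p = 3.78e-33 by edgeR), and 94 genes had a larger one.

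**Figure D2:**
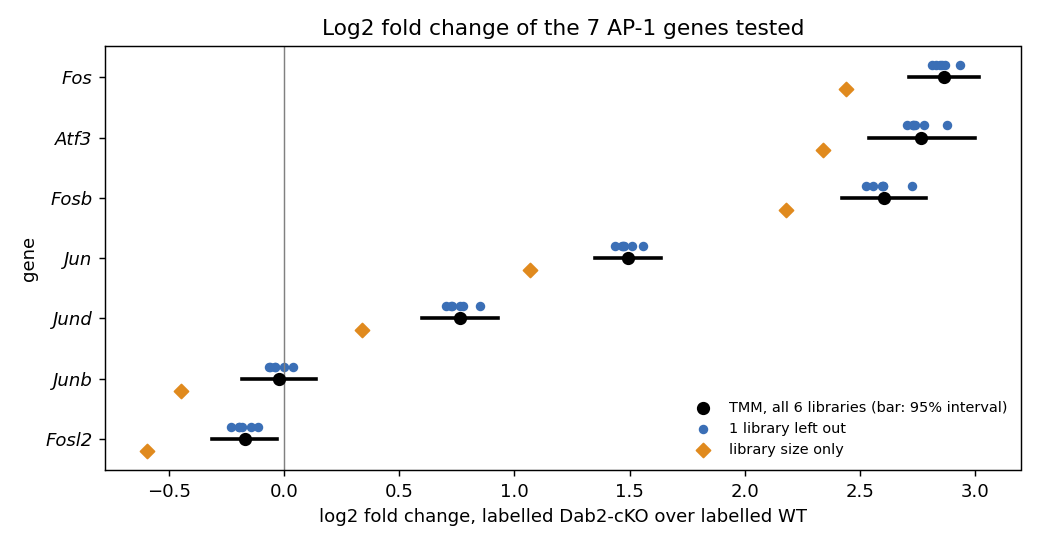
Log2 fold changes of the 7 tested AP-1 genes, libraries labelled Dab2-cKO over those labelled WT, as edgeR's estimate (points) with its 95% interval (bars), with the estimates when 1 library was left out (small points above) and with library size alone (diamonds below). The intervals of Fos, Atf3, Fosb, Jun and Jund lie above 0, that of Junb spans 0 and that of Fosl2 (-0.31 to -0.03) ends just below it.

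The scale of these values rests on the TMM factors, which were 1.11 to 1.21 under the WT label and 0.847 to 0.876 under the Dab2-cKO label. Scaling by library size alone moved the median of all genes from -0.02 to -0.45. A change of scaling shifts all genes by about the same amount, so relative to the median Fos stood at 2.89, Jun at 1.52 and Jund at 0.79 under either scaling. The rises of Fos, Fosb, Atf3, Jun and Jund passed the test under both scalings, the smallest being Jund at 0.34 with library size alone, whereas Junb at -0.45 and Fosl2 at -0.60 were then called lower (edgeR's adjusted p = 6.88e-08 and 1.14e-15). A ratio of 2 genes within a library needs no scaling. Against Jund, the log2 ratio of Fos was -0.43 ± 0.02 under the WT label and 1.66 ± 0.04 under the Dab2-cKO label (SD, n = 3 each), a difference of 2.10. The same difference was 1.99 for Atf3, 1.85 for Fosb, 0.73 for Jun, -0.79 for Junb, -0.94 for Fosl2 and -1.84 for Fosl1. Jund itself rose, so the ratio of a gene that kept its level would fall. For each of these 7 ratios the groups did not overlap. The ratio to Jund was wholly higher under the Dab2-cKO label in 5.13% of all genes, as in Fos, Atf3, Fosb and Jun, and wholly lower in 61% of them, as in Junb, Fosl2 and Fosl1. The exact 2-sided permutation test gave p = 0.1, which is the smallest that 3 against 3 libraries allow, and an adjusted p of 0.1 over the 7. With Fosl2 as the reference in place of Jund, the differences of Fos, Atf3, Fosb, Jun and Jund were positive without overlap (exact permutation test, adjusted p = 0.14 each). Fosl2 itself was wholly lower under the Dab2-cKO label, and the share of all genes wholly above it in this ratio was not counted. The difference of Junb was 0.14 and that of Fosl1 -0.90, both with overlapping groups (exact permutation p = 0.2 each). The sign for Junb thus depends on the reference, and the value of Fosl1 rests on the few counts given above.

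Per kb of exon, the level of Fos rose from the fifth place to the first. In the libraries labelled WT, Jun (283 ± 23.8 normalized counts per kb, SD, n = 3), Junb (270.4 ± 16.4) and Jund (270.3 ± 26.2) led and overlapped with each other. Fosl2 (143 ± 12.0) and Fos (141 ± 11.3) followed and overlapped as well. Atf3 (39.2 ± 5.25), Fosb (28.9 ± 4.09) and Fosl1 came last, each apart from the next. In the libraries labelled Dab2-cKO the order was Fos (1029 ± 18.5), Jun (797 ± 7.01), Jund (459 ± 15.9), Junb (266 ± 15.0), Atf3 (265 ± 11.5), Fosb (177 ± 5.36), Fosl2 (127 ± 1.78) and Fosl1. Of these neighbours only Junb and Atf3 overlapped.

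Summed over the 8 genes, the level was 1181 ± 78.7 normalized counts per kb under the WT label and 3123 ± 45.2 under the Dab2-cKO label (SD, n = 3 each). Fos took 12.0% ± 0.520 of this sum in the first group and 32.9% ± 0.137 in the second. The share of Jun was 24.0% and 25.5%, that of Junb 22.9% and 8.52%, and that of Jund 22.9% and 14.7%. The Fos family as a whole took 26.9% ± 0.464 and 42.8% ± 0.267, and the Jun family 69.7% ± 0.290 and 48.8% ± 0.111, with Atf3 making up the rest. For both families the groups did not overlap. The shares depend on the exon length of each gene, and with the length of the canonical transcript Junb came first under the WT label, the Fos family took 30.7% and 45.8%, and the Jun family 65.8% and 45.1%. Under the Dab2-cKO label the order of the families thus depends on the length used. The level of Jund, and with it the shares, also carries the unresolved overlap with Gm11175 over 52.6% of its exon bases. The shares describe transcripts and not proteins or dimers.

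**Figure D3:**
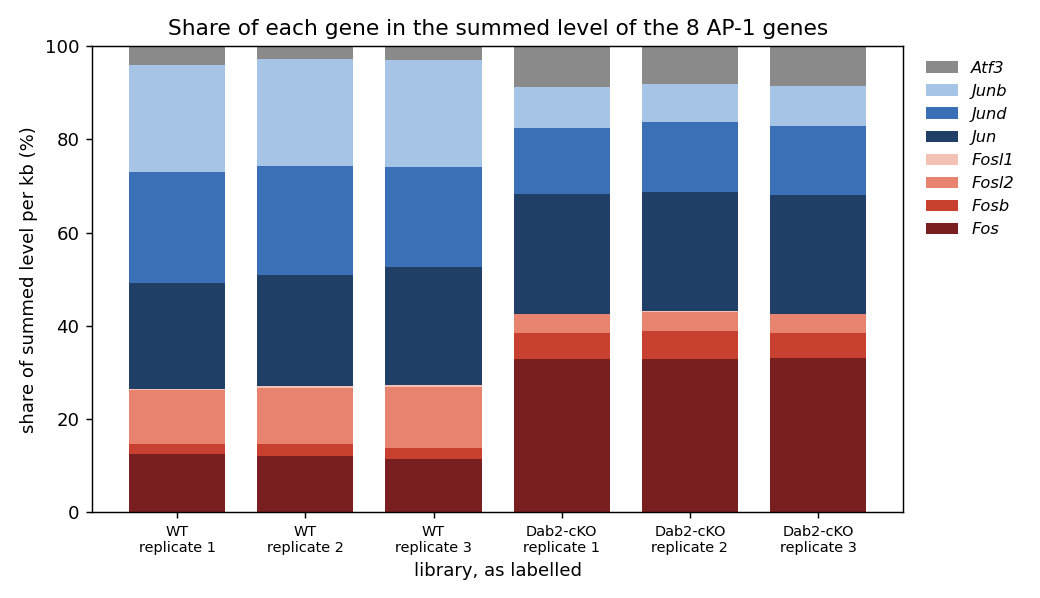
Share of each AP-1 gene in the summed level of the 8 genes (normalized counts per kb of exon, in percent), as a stacked bar for each library. In the 3 bars labelled Dab2-cKO the share of Fos is wider than in the 3 labelled WT (32.9% against 12.0% on average) and that of Junb narrower (8.52% against 22.9%).

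The stretches upstream of the starts of 5 members are shown because they hold short motifs that AP-1 genes are known for, in called members (Fos, Fosb, Jun and Jund) and in a member not called (Junb). The 500 bases before the start of the canonical transcript of each coding gene were searched on both strands for these motifs. They were TGANTCA (the TPA response element), TGACGTCA (the full cAMP response element) and its beginning, TGACG (the partial element, which lies within the full one). The others were TGACATCA (the element known from the Jun promoter), TATAAA and the CArG box bound by serum response factor. Sequences were read from the GRCm39 genome at the starts annotated by GENCODE and are written 5′ to 3′ along the gene's strand, with capitals marking these motifs. Only parts of the 500 bases are printed, so some of the matches counted below lie outside the printed stretches.
Fos (chr12:85520338-85520637, + strand): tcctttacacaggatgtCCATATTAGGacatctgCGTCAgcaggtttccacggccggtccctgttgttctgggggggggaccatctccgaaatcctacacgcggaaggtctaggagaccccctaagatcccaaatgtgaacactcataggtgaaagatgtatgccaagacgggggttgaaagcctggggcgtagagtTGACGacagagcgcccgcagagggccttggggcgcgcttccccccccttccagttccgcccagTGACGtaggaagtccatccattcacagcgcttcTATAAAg
Fosb (chr7:19044017-19044266, - strand): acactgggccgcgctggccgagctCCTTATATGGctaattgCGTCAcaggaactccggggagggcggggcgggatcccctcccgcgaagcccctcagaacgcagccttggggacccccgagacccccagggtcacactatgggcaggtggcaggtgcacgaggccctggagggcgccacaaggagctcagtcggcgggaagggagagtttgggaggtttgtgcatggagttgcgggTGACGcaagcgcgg
Jun (chr4:94940460-94940579, - strand): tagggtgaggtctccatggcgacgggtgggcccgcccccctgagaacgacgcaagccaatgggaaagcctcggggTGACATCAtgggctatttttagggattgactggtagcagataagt
Jund (chr8:71151369-71151518, + strand): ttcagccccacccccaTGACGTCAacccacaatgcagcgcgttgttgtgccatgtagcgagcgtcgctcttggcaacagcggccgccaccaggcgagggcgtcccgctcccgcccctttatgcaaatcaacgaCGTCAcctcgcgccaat
Junb (chr8:85705368-85705497, - strand): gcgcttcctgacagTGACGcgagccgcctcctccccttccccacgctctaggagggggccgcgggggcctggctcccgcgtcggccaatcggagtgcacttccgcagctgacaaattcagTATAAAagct
The CArG box was found in Fos and Fosb and in no other member, against 2.76% of 21770 promoters. In both genes a partial cAMP response element lies a few bases after it on the reverse strand, where it is printed as CGTCA. This element was found at 4 places in Fos and 3 in Fosb, and in 25.8% of all promoters. It was also found in Jun, Junb, Jund and Fosl1. TGACATCA was found in Jun alone among the members (3.72% of all promoters), and TGACGTCA in Jund alone (1.96%). TGANTCA was found once, in Fos (12.3%), and TATAAA in Fos, Junb and Fosl1 (24.3%). Atf3, which rose about as much as Fos, and Fosl2, which did not pass the test, had none of these motifs in the window. For Atf3, on the - strand, the canonical start is at 190915537, while the annotated gene reaches upstream to 190950241. Bases before any start farther upstream were not searched. These matches describe the letters only and say nothing of which factors were bound in these cells.

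Genes that act on AP-1 or resemble it were counted in 6 further lists. Of 19 immediate early genes outside AP-1, 15 were called higher and 1 lower, with a median log2 fold change of 0.89. With library size alone, 11 were called higher and 4 lower. Over all genes 16.8% were called higher and 11.5% lower. Over genes whose mean normalized count reached 100 (well-counted genes) it was 37.6% and 22.8%, which is also the background for the lists that follow. This list and those of attenuators, other bZIP factors and AP-1 targets also hold genes under 100, which that background leaves out. Nr4a1, an orphan nuclear receptor, had normalized counts of 79.8 ± 2.07 and 429 ± 35.6 (log2 fold change 2.42), and Ccn1, a secreted matrix protein, 171 ± 24.7 and 873 ± 9.44 (2.35), under the WT label and Dab2-cKO (SD, n = 3 each). Klf2, a zinc finger factor, rose by a log2 fold change of 2.14. Not all moved this way. Egr3, a zinc finger factor of the same kind as Egr1, fell from 1179 ± 134 to 556 ± 44.7 (log2 fold change -1.08, edgeR's adjusted p = 3.96e-19), while Egr2 (0.12) and Ier5 (-0.02) did not pass the test.

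Kinases and factors upstream of AP-1 moved less. Of 16 tested, 7 were called higher and 1 lower, with a median log2 fold change of 0.15, and the share called higher was near the 37.6% of well-counted genes. Elk3, a ternary complex factor that works at CArG boxes, was higher by 0.91, the MAP kinase kinase gene Map2k1 by 0.58, and Mapk9, which encodes the Jun kinase JNK2, by 0.48. Map3k1, a kinase upstream of the Jun kinases, fell from 1566 ± 146 to 1035 ± 56.8 normalized counts (log2 fold change -0.60, edgeR's adjusted p = 1.81e-10). The values of Mapk8, the gene of JNK1 (-0.12), and of the coactivator gene Mrtfa (-0.18) did not pass. With library size alone the list had 1 gene called higher and 9 lower, so its direction depends on the scaling.

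Among 13 genes that attenuate the pathway, 6 were called higher and 3 lower (median 0.16), against 37.6% and 22.8% of well-counted genes. With library size alone it was 4 higher and 5 lower. Dusp1, a phosphatase of MAP kinases and itself an immediate early gene, rose from 159 ± 23.2 to 1390 ± 62.2 normalized counts (log2 fold change 3.12, edgeR's adjusted p = 1.83e-41), more than any AP-1 gene. Zfp36, which destabilizes short-lived mRNAs, rose by 1.63 and its relative Zfp36l2 by 0.86. Dusp6, the phosphatase of ERK, fell by 0.49 and Fbxw7, part of a ubiquitin ligase for Jun, fell by 0.25 on the log2 scale. Itch, another ligase for Jun proteins, stood at -0.11 and did not pass.

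Other bZIP factors were called higher in 6 and lower in 2 of 15 cases (median 0.34), against 37.6% and 22.8% of well-counted genes. Jdp2, a repressor that pairs with Jun, rose by 1.17, the small Maf gene Mafk by 0.72 and Nfe2l2, the regulator of antioxidant genes, by 0.59. Creb1, the gene of a cAMP-responsive factor, was called lower (-0.20), and the small Maf gene Mafg (-0.10) did not pass. The lower calls are not stable, as none was left without WT replicate 2 or without WT replicate 3, and 1 without each Dab2-cKO library. With library size alone, 1 was called higher and 5 lower.

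Known target genes of AP-1 did not move one way. Of 19, 7 were called higher and 5 lower, with a median log2 fold change of 0.10. Of well-counted genes, 37.6% were called higher and 22.8% lower, but this list also holds genes below that count. All 5 called lower were well counted, while Mmp9 and Timp1 among the 7 called higher were not. The shares are therefore not of like sets. With library size alone, 4 of the 19 were called higher and 6 lower. Loricrin, a major protein of the cornified envelope, rose from 653 ± 123 to 2398 ± 45.5 normalized counts (log2 fold change 1.87), the matrix protease gene Mmp3 rose by 1.45 and Vegfa by 1.27. Ivl, the gene of the envelope protein involucrin, fell from 2015 ± 136 to 1036 ± 49.9 (-0.96). On the log2 scale Tgm1, which cross-links the envelope, fell by 0.96, and Krt6a, a keratin of wounded epidermis, fell by 1.76. The heat shock genes, a second stress response, were also mixed, with 4 called higher and 3 lower of 10 and a median of -0.01. These calls were close to the shares of well-counted genes. Under library size alone 3 were called higher and 6 lower, and under upper-quartile scaling 4 and 5. Hspa1a rose by 1.56 and Hspa1b by 1.02, the cochaperone gene Dnajb1 by 0.64, while Hsp90aa1 fell by 0.88, Hsph1 by 0.37 and Hspa8 by 0.27.

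**Figure D4:**
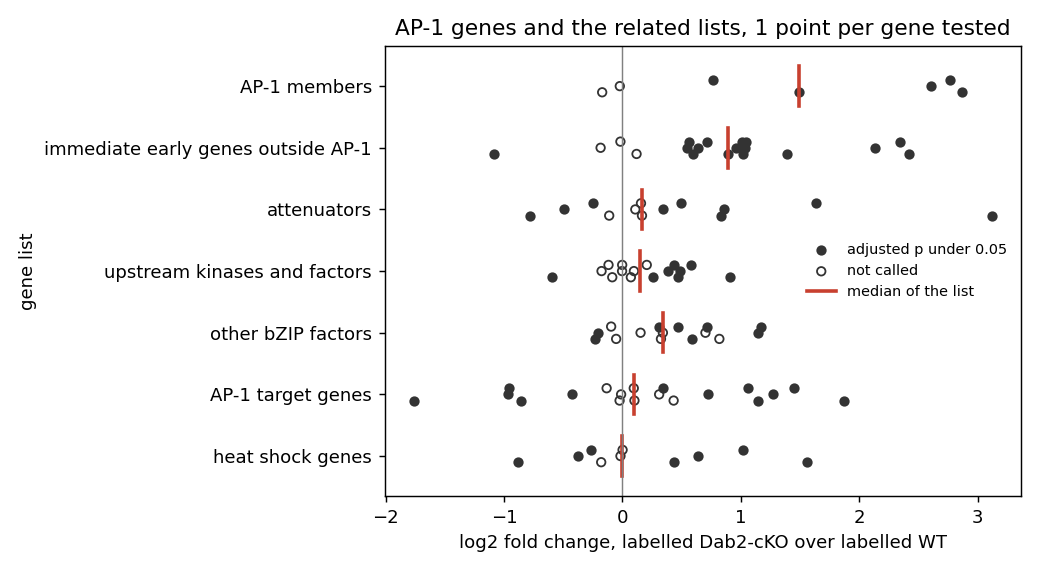
Log2 fold changes of the tested genes of the AP-1 genes and of 6 related lists, 1 point per gene, libraries labelled Dab2-cKO over those labelled WT, filled where called and open where not, with a line at each list's median. The medians of the AP-1 genes (1.49) and of the other immediate early genes (0.89) lie farthest above 0, and that of the heat shock genes (-0.01) lies at 0.

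Markers of other cell types moved with the AP-1 genes. The counts of the 8 AP-1 genes together made up 0.0491% to 0.0516% of the libraries labelled WT and 0.0846% to 0.0871% of those labelled Dab2-cKO. Fibroblast markers took 1.29% to 1.44% and 3.17% to 3.46%, with 6 of 6 called higher. Skeletal muscle markers took 0.323% to 0.344% and 1.24% to 1.30% (6 of 6 higher), endothelial markers 0.0172% to 0.0184% and 0.0443% to 0.0460% (6 of 6) and immune markers 0.0193% to 0.0194% and 0.0602% to 0.0646% (5 of 7). Markers of the differentiated interfollicular epidermis took 0.137% to 0.144% and 0.426% to 0.441% (7 of 7). Of the smaller lists, markers of erythrocytes (5 of 5), of adipocytes (4 of 5, with 1 lower) and of the infundibulum and sebaceous gland (4 of 5, with 1 lower) were mostly higher.

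Other lists moved the opposite way. Hair shaft and inner root sheath markers took 2.79% to 3.08% of the counts under the WT label and 0.0199% to 0.0208% under the Dab2-cKO label (8 of 8 lower). All 4 hair germ, all 6 proliferation and all 6 melanocyte markers were also lower. The libraries labelled WT thus held many hair shaft transcripts, although the paper gives the resting phase for both groups. Whether the follicles of both groups were at the same stage was not tested. None of the marker genes in these lists was at 0 in all libraries. The sorted cells' own markers were present in every library, with Cd34 higher by 1.80 and Itga6 by 0.55 on the log2 scale. Of 10 genes listed for the bulge 7 were called higher and 3 lower, the 3 being Sox9 (-1.45), Lhx2 (-1.43) and Lgr5 (-1.32). The 7 were Cd34, Itga6, Krt15, Nfatc1, Krt14, Krt5 and Col17a1. Not all are particular to the bulge, as Krt14 is also expressed in the interfollicular epidermis. In bulk RNA, fewer cells of a type and less RNA per cell cannot be told apart. The part of these markers, or of the mitochondrial and rRNA shares, in the values of the AP-1 genes was not tested.

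**Figure D5:**
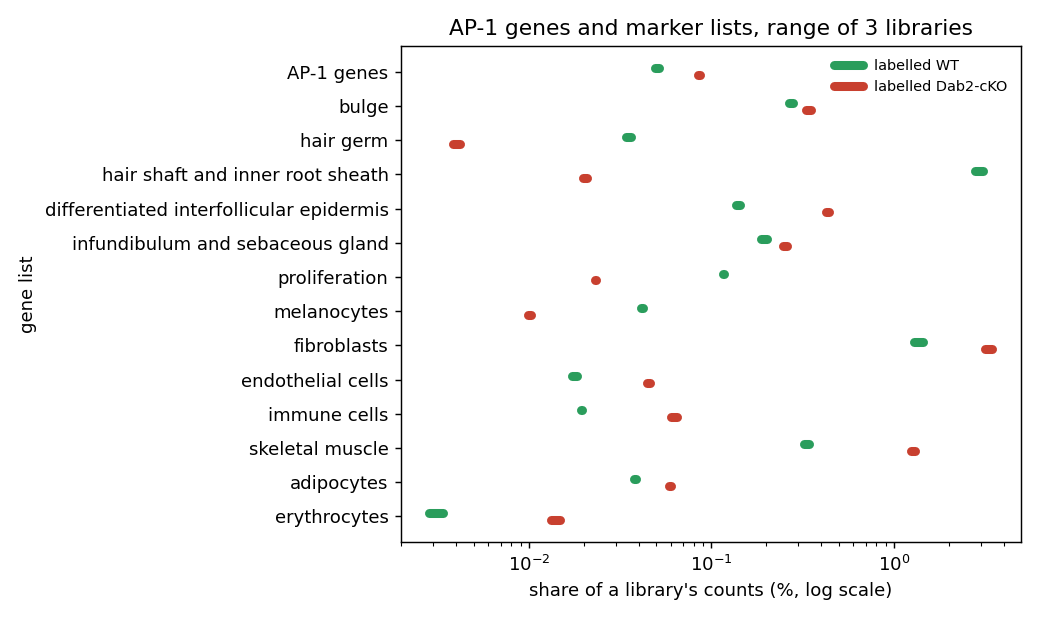
Summed counts of the AP-1 genes and of each marker list as a percentage of a library's counts, on a log10 axis, with bars from the lowest to the highest of the 3 libraries labelled WT and of the 3 labelled Dab2-cKO. The AP-1 genes stand at 0.0491% to 0.0516% against 0.0846% to 0.0871%, and the hair shaft and inner root sheath markers fall from 2.79% to 3.08% down to 0.0199% to 0.0208%.

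The genes whose pattern over the 6 libraries was most like that of Fos were found by the root mean square difference of their log2 CPM, each centred on its own mean, among 10839 other genes whose mean normalized count reached 100. They were F13a1, a coagulation factor gene known from macrophages (0.0507), Phf11d (0.0611) and Siglec1, a lectin of macrophages (0.0672). F13a1 had normalized counts of 432 ± 30.7 and 2988 ± 60.4 (SD, n = 3) under the WT label and Dab2-cKO. In all, 56 genes lay within 0.2 of Fos. Atf3 (0.135) and Fosb (0.162) were also this near, and Jun was not (0.687).

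For Jun the most alike were the receptor gene Pdgfrb (0.0233), the collagen gene Col1a2 (0.0353) and the glycolytic gene Aldoa (0.0374), and 620 genes lay within 0.2. No other member did, the nearest being Jund (0.376). With 2 groups of 3 libraries, this likeness mostly measures a similar fold change and says nothing of shared function or control.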

How the data were processed

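Total RNA of sorted HFSCs was measured in 6 libraries, 3 per label. By the labels and the paper's methods, the authors trimmed reads with fastp 0.23.4, aligned them to GRCm39 with HISAT2 2.2.1 and counted them per gene with featureCounts 2.0.6. The deposited counts per gene were used without normalization. Strand setting, multi-mapping reads, molecular identifiers and annotation release are not given in the sources used here. A second deposited table, the authors' own DESeq2 comparison, was not used. Reads of overlapping or antisense genes can therefore not be separated, and the large share of mitochondrial and rRNA counts lowers the depth left for other genes.

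Counts were filtered (filterByExpr), normalized by TMM and tested by the quasi-likelihood test of edgeR 4.0.16 in R 4.3.3. Dispersions were robust, with Benjamini-Hochberg adjustment over 32149 genes. The procedure was tried on simulated counts in which few genes changed, equally in both directions. That trial does not cover the scaling where as many genes change as here. Standard errors are Wald errors. Normalized counts are scaled to the mean effective library size. Nothing says how many mice each library holds, so p-values measure the spread between these samples. Ratios used a pseudocount of 0.5. Exon lengths and locations came from GENCODE for GRCm39, which gave 181 of the 181 list genes. The 3 genes with the highest and the 3 with the lowest log2 fold changes of each list were named if their mean normalized count reached 100, as were the 8 members, the 3 genes most like Fos and Jun, Dab2 and marker genes. A gene that this rule names is not reported here. The members and lists were chosen with earlier results of these data known. A count of 0 allows up to 2.56e-05% to 4.26e-05% of a library, for counting error only.

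Alternatives were DESeq2 1.42.0, 3 other scalings, no filter, a minimum mean count of 50, a replicate block, leaving out each library, a test against a 1.5-fold change, another pseudocount and another reference gene, and, chosen after seeing the data, GC and length offsets and canonical transcript lengths.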

Additional observations from a re-analysis of the deposited data

How the results depend on the processing

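The rises of Fos, Fosb, Atf3, Jun and Jund passed the test under each alternative, the test against a 1.5-fold change included, where Jund was nearest the threshold (edgeR's adjusted p = 0.0409). With libraries left out in turn, their log2 fold changes ranged from 2.82 to 2.94 (Fos), 2.53 to 2.73 (Fosb), 2.71 to 2.88 (Atf3), 1.44 to 1.56 (Jun) and 0.70 to 0.85 (Jund). The number of members called lower, 0 as reported, was 1 (Fosl2) with upper-quartile scaling, with TMM factors computed without mitochondrial and the 100 most abundant genes, without the low-count filter, with a minimum mean count of 50 and with GC and length offsets, 2 (Fosl2 and Junb) with library size alone, and 0 to 1 with each library left out. The members' median log2 fold change, 1.49 as reported, was 1.35 with upper-quartile scaling and 1.07 with library size alone, which shift all genes. With Fosl2 in place of Jund as the reference, the difference of the Junb ratio reversed from -0.79 to 0.14 (exact permutation p = 0.2). Fosl1 was never called. Immediate early genes outside AP-1 called lower numbered 4 with library size alone (1 as reported), and other bZIP factors called lower 0 with DESeq2 (2 as reported). With the replicate number as a block, 5 members were called, the same number as without it. The correlations of same-numbered libraries were 0.11, -0.03 and 0.07 over 12310 genes, and not every library correlated best with its own number, so the numbers were not taken as a pairing. Low counts limit Fosl1 alone among the members, and its overlap with Ccdc85b may add to this. Except where a scaling shifts all genes, the cause of these differences was not tested.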
